A study of Bos taurus with 8 samples.

Results

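High-yield and low-yield dairy cows in lactation IV were compared on 4 arrays, out of 8 in the series, chosen as those whose labels place both channels in lactation IV. Each array carried RNA from mammary gland tissue of 1 high-yield and 1 low-yield healthy lactating Holstein Friesian cow, labelled with Cy5 and Cy3. The 4 cows formed 2 pairs, called pair 3 and pair 4 after their replicate numbers, and each pair was hybridised to 2 arrays with exchanged dyes, so that array 1 had the high-yield cow in Cy5 and array 2 had it in Cy3. Per the study's description, high-yield cows averaged 11097 kg of milk per lactation and low-yield cows 6956 kg over both lactations of the series. No treatment was given, age was not labelled, and a pair rests on 1 cow of each yield. Values are log2 ratios of the high-yield over the low-yield cow, so 1 stands for a doubling. An array value is 1 hybridisation, a pair value is the mean of its 2 arrays, and the replicate is the pair (n = 2).

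In the lactating gland, alveolar epithelial cells make caseins and whey proteins in the endoplasmic reticulum and send them through the Golgi apparatus to the lumen. The same cells make fatty acids and sterols under SREBP transcription factors, pack triglyceride into droplets and bud these off as milk fat globules. Prolactin, acting through STAT5, maintains the secretory state, and the epithelium can also secrete acute phase and antimicrobial proteins such as serum amyloid A.

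Each channel of the 4 arrays had 24519 to 32927 probes above background, of 43653 in all, and 12456 named genes passed the filter on dim probes, each represented by its brightest probe. Milk protein genes were among the brightest on the arrays, with a mean level of 16.69 to 17.67 (log2 intensity) in the 4 cows against 9.14 to 9.21 over all genes. Markers of luminal epithelium had mean levels of 11.25 to 12.03, while those of adipocytes (8.15 to 8.59) and T and NK cells (8.24 to 8.83) were below the mean of all genes. Pairs 3 and 4 shared slide 2 and scan 2, and the cows of lactation II, in the same 2 yield groups, were on slide 1 and scan 1, so lactation and slide cannot be told apart.

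The first question was which genes differed between the yields in the same sense in both pairs. Among the genes that stood highest in both high-yield cows were CHI3L1, C4BPA, ASGR1 and SAA3, and among those that stood lowest were PTX3, PSPH, GPAM and ALOX15. With 2 pairs, limma called 0 of 12456 genes at an adjusted p under 0.05 (0%), although 1618 genes (13.0%) had an unadjusted p under 0.05. The smallest adjusted p of limma was 0.177, reached by 34 genes. When each array was centred on its median in place of loess, limma called 99 genes, of which 30 stood above and 69 below 0, and all 99 were among the shared genes of 1 or more in size described next.

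A gene was called shared when its ratio had 1 sign in all 4 arrays. This held above 0 for 2016 genes (16.2%) and below 0 for 1743 genes (14.0%); with median centring the counts were 952 and 1522. Both pair means reached 1 in size for 112 of the higher genes (0.899% of all genes) and for 176 of the lower ones (1.41%). The 24 genes described next, all but 1 of them by name, were ranked by the smaller of their 2 pair means. Their adjusted p lay between 0.177 and 0.189 in limma, so none passed.

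**Figure D1:**
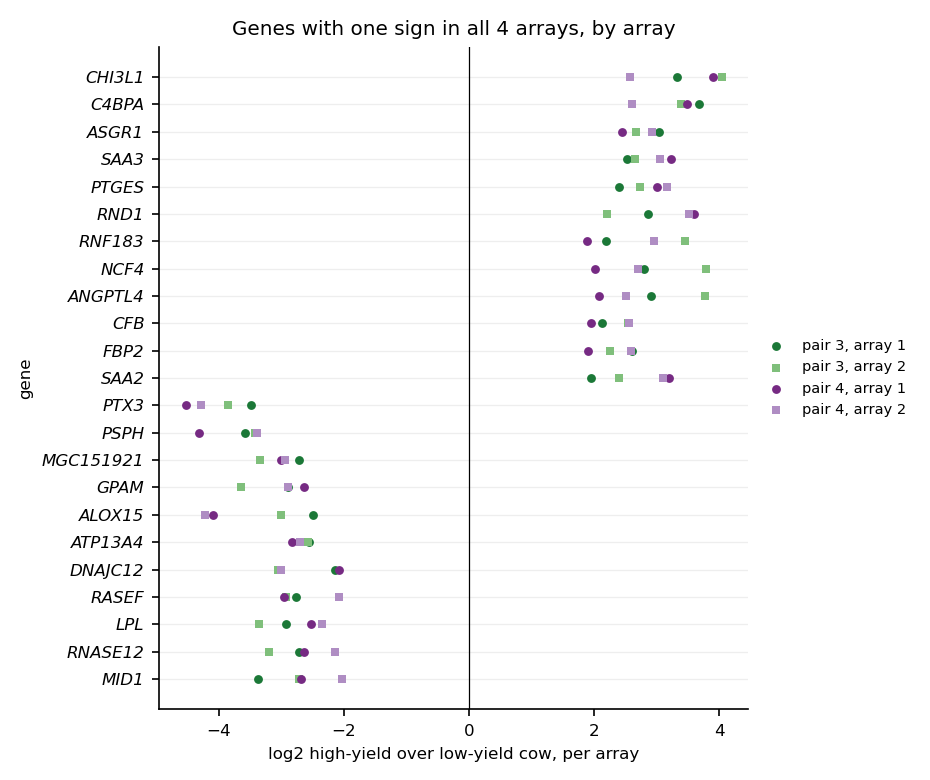
Log2 ratio of the high-yield over the low-yield cow on each of the 4 arrays (points, x axis) for the 12 higher and 11 of the 12 lower shared genes with the largest smaller pair mean (y axis). All points of a gene lie on 1 side of 0, and those of CHI3L1 run from 2.57 to 4.04.

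CHI3L1, a secreted chitinase-like glycoprotein of inflamed tissue, stood at 3.33 and 4.04 on the arrays of pair 3 and at 3.90 and 2.57 on those of pair 4. Its mean was 3.46 ± 0.31 (SD, n = 2 pairs). In levels, the low-yield cow of pair 4 (12.37, log2 intensity) lay above the high-yield cow of pair 3 (11.56), so the cows of the 2 yields overlapped although each pair differed. C4BPA, the alpha chain of the C4b-binding protein that restrains complement, stood at 3.67, 3.39, 3.48 and 2.61 on the 4 arrays, a mean of 3.29 ± 0.35. CFB, the complement protease factor B, differed the least between pairs among the 12 higher genes, with 2.12, 2.54, 1.95 and 2.57 on the arrays and a mean of 2.29 ± 0.05. The probe of CFB lies at 27207253 to 27207312 of chromosome 23 in Btau_3.1, the build that the files use for every position given here.

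Serum amyloid A was represented by several named copies with sequence in common. SAA3, the acute phase protein that the gland makes itself, stood at 2.53 and 2.66 in pair 3 and at 3.23 and 3.05 in pair 4, a 7.30-fold higher signal. SAA2 stood at 1.96, 2.40, 3.19 and 3.11, and M-SAA3.2 at 2.88, 1.28, 3.62 and 2.67. Levels of SAA3 were 13.95 against 11.36 (log2 intensity) in pair 3 and 17.95 against 14.81 in pair 4, so both cows of pair 4 were above both cows of pair 3. The probes share sequence, shown here 5′ to 3′ as 30 bases of each probe with the longest run common to a pair of probes in capitals, because it bears on whether the copies can be separated. The SAA3 probe at 27684360 to 27684419 of chromosome 29 and the SAA2 probe at 27773855 to 27773910 share a run of 24 bases, and another SAA3 probe shares 22 bases with that of M-SAA3.2.
SAA3, brightest probe: acctAGAGAGTTCTCTGTCCTCAGAAGGca
SAA2, brightest probe: AGAGAGTTCTCTGTCCTCAGAAGGaagcag
SAA3, another probe: gggaATCACAGACCCTCTGTTTAAGGgtat
M-SAA3.2: agggATCACAGACCCTCTGTTTAAGGtatg
These probes were not shown to tell the copies apart, and how far each binds RNA of another copy was not tested. The M-SAA3.2 probe, at 27773620 to 27773683 of chromosome 29, lies beside that of SAA2, so these names need not be separate copies. Of the SAA3 probes, 2 share no such sequence with another gene, and they stood at 1.32 and 1.17 in pair 3 and at 1.78 and 1.69 in pair 4. The SAA2 probe that shares none stood at 0.37 in pair 3 and 0.21 in pair 4. With probes that share sequence between genes left out, the mean was 1.55 for SAA3 and 0.29 for SAA2.

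Among the other genes higher in the high-yield cows, PTGES, the prostaglandin E synthase, stood at 2.40, 2.73, 3.00 and 3.17 on the arrays, with its probe on chromosome 11 at 103800389 to 103800448. ASGR1, a subunit of the asialoglycoprotein receptor, had a mean of 2.77 ± 0.12. ANGPTL4, a secreted inhibitor of lipoprotein lipase, was 2.82 ± 0.74. NCF4, a subunit of the phagocyte NADPH oxidase, was 2.83 ± 0.66, but its probe shares sequence with a probe of another gene, and its other probe stood at 0.48 in pair 3 and 1.18 in pair 4. RND1, a small GTPase, was 3.04 ± 0.73, the ubiquitin ligase RNF183 was 2.62 ± 0.28, and FBP2, a fructose bisphosphatase, was 2.34 ± 0.13. RNF183 was above background in 3 of the 4 channels of the low-yield cows.

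In the other direction, PTX3, a pentraxin of innate immunity, stood at -3.48 and -3.85 in pair 3 and at -4.53 and -4.28 in pair 4, a 16.4-fold lower signal in the high-yield cows. Its levels were 8.43 and 7.32 (log2 intensity) in the high-yield cows and 12.09 and 11.72 in the low-yield cows, without overlap. PSPH, the phosphatase of the last step of serine synthesis, stood at -3.58, -3.41, -4.31 and -3.39, a mean of -3.67 ± 0.25. PTX3 was measured on chromosome 1 at 112141324 to 112141383 and PSPH on chromosome 25 at 29521856 to 29521915. ALOX15, a lipoxygenase of arachidonic acid, was lower in pair 4 (-4.09 and -4.22) than in pair 3 (-2.49 and -3.01).

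GPAM, which starts triglyceride synthesis by acylating glycerol phosphate, stood at -2.89, -3.65, -2.63 and -2.89 on the arrays, an 8.08-fold lower signal. LPL, the lipase that frees fatty acids from plasma lipoproteins, stood at -2.93, -3.36, -2.53 and -2.35. GPAM lies under a probe on chromosome 26 at 33097869 to 33097928, and LPL under one on chromosome 8 at 70213830 to 70213889. DNAJC12, a co-chaperone of the DnaJ family, had a mean of -2.57 ± 0.04. ATP13A4, a P-type ATPase, was at -2.67 ± 0.15, the Rab-related GTPase RASEF at -2.68 ± 0.23, the microtubule-bound ubiquitin ligase MID1 at -2.70 ± 0.49 and RNASE12, of the ribonuclease A family, at -2.67 ± 0.40. MGC151921, named in the file only by its clone, was at -3.00 ± 0.04. For each of the 24 genes with further kept probes, every such probe had the same signs in both pairs. Some were much smaller in size. The other probe of ASGR1 stood at 0.25 in pair 3 and 0.36 in pair 4. Others stood at 0.78 and 2.93 for CHI3L1, -0.64 and -1.78 for ALOX15, -0.86 and -0.49 for LPL and 1.76 and 0.70 for FBP2. Those of C4BPA and GPAM, and another each of CHI3L1 and LPL, were of like size.

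The next comparison was how far the 2 pairs agreed over all genes. Pair 3 and pair 4 correlated at r = 0.349 across 12456 genes (Spearman's rank correlation 0.372), and 63.4% of genes had the same sign in both pair means. These genes are not independent, and the arrays share a slide. The SD of the ratios was 0.767 in pair 3 and 0.555 in pair 4, and 1672 and 829 genes reached 1 in size. The arrays of pair 3 correlated at 0.689 and gave the same sign for 72.1% of genes, those of pair 4 at 0.346 and 55.1%.

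Ratios also followed the dye orientation. Arrays of different pairs but of the same dye orientation correlated at 0.442 and 0.392, while those of opposite orientation correlated at 0.125 and 0.0946. The difference between the 2 arrays of a pair, in which the yield effect cancels, correlated at 0.683 between the pairs. A sign shared by all 4 arrays is balanced over the dyes, and the counts that follow use it.

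Agreement was closer among larger ratios. Where both pair means were at least 0.25 in size, 2478 genes were shared and 727 had the pairs opposite on both arrays each. At 0.5 the counts were 1274 and 230, at 1 they were 288 and 19, and at 2 they were 44 and 2. By brightness, with genes split into 4 sets of 3114, r was 0.166 in the dimmest set, 0.249 and 0.450 in the next, and 0.394 in the brightest. Of the 288 shared genes, 129 lay in the brightest set against 7 in the dimmest.

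**Figure D2:**
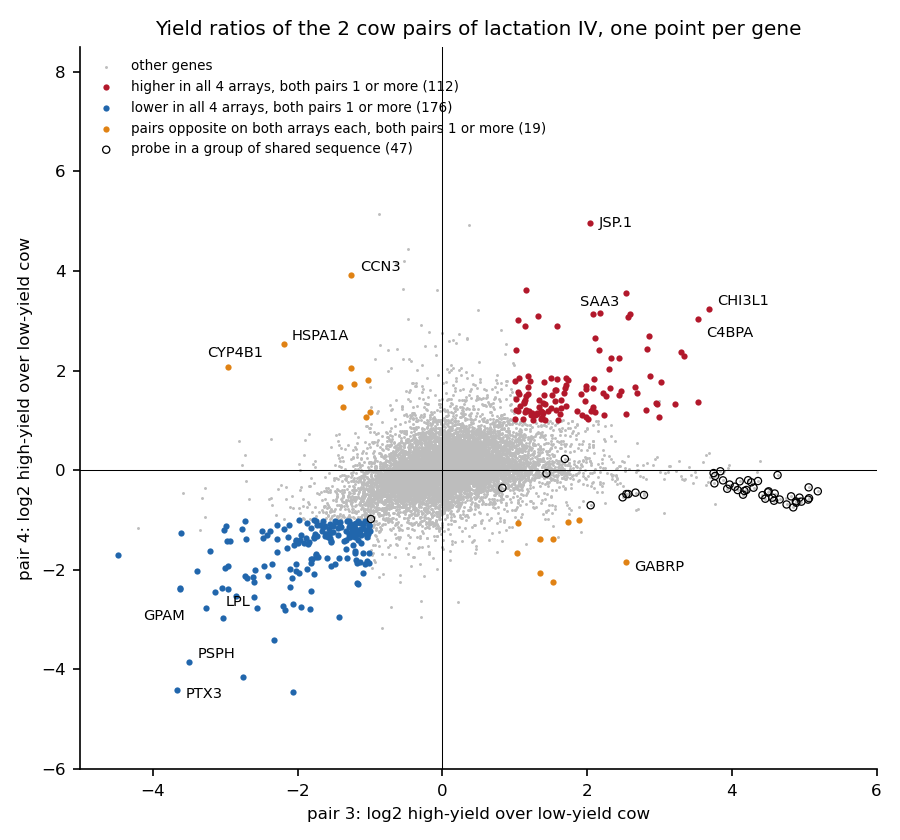
Log2 ratio of the high-yield over the low-yield cow in pair 3 (x axis) and pair 4 (y axis), 1 point per gene (12456 genes). Red and blue points are the 112 higher and 176 lower shared genes, orange points the 19 genes with opposite pairs, and open circles the 47 genes represented by a probe of the shared-sequence groups described in the text, most of which lie above 2 in pair 3 and just below 0 in pair 4.

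A tight band of genes stood apart from this agreement, far above 0 in pair 3 and just below 0 in pair 4. Many of the probes in it carried the same short stretches of sequence. Of 239 kept probes above 2.5 in pair 3 and below 1 in pair 4, 120 (50.2%) shared at least 6 words of 12 bases with a probe of another gene, against 4.86% of all kept probes. This was looked for after the band was seen, and no repeat annotation was used. Mammalian genomes hold many copies of interspersed repeats in the introns and untranslated ends of genes, and a probe lying in such a copy can bind RNA of many genes.

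Linking probes by these shared words gave 10 groups of at least 9 genes or transcripts. In 5 of them the median of pair 3 was above 2, and these 5 were joined because of that value, so their pair 3 ratios are a description. They held 95 probes of 65 genes or transcripts, 92 of them kept. Stretches from 3 groups are printed here, each turned to 1 strand, to show the sequence that unrelated genes have in common; capitals mark the run shared within a group. The first lines are from probes of H2BC8, a histone, ACP3, an acid phosphatase, and POLH, a DNA polymerase.
H2BC8, chromosome 23: tGCCATTTCCTTCTCCAATGCATGAAAGTg
ACP3, chromosome 1: gGCCATTTCCTTCTCCAATGCATGAAAGTa
POLH, chromosome 23: tGCCATTTCCTTCTCCAATGCATGAAAGTg
AGTR1, chromosome 1: gaAGCTGAAACTCCAATACTTTGGCCACct
PIGM, chromosome 3: aaAGCTGAAACTCCAATACTTTGGCCACat
C3H1orf109, chromosome 3: cttaaGAGTCTTCTCCAACACCACAgttca
CTNNA3, chromosome 28: ctcagGAGTCTTCTCCAACACCACAgttca
CWC25, chromosome 19: caaGAGTCTTCTCCAACACCACActccaaa
Probes of H2BC8, ACP3 and POLH stood at 4.36, 4.30 and 4.27 in pair 3 and at -0.22, -0.25 and -0.24 in pair 4. Those of AGTR1, the angiotensin receptor, and PIGM, a mannosyltransferase of GPI anchors, stood at 4.85 and 4.76 in pair 3 and at -0.74 and -0.69 in pair 4.

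The 92 kept probes of the 5 groups had medians of -0.9997, 0.73, 4.43 and -0.45 in pairs 1 to 4, where probes linked to no other gene had medians of -0.04, 0.02, -0.03 and -0.01. On the arrays of pair 3 the medians were 4.59 and 4.21, and on those of pair 4 they were -0.46 and -0.39. In pair 3, 87 of the 92 probes were above 2, and in pair 4, 89 were below 0. The median level of these probes was 15.35 (log2 intensity) in the high-yield cow of pair 3 and 10.75 in the low-yield cow of that pair. In the other cows it was 12.08 and 12.57 in pair 4, 13.33 and 12.51 in pair 2 and 11.73 and 12.77 in pair 1, the high-yield cow first each time. The high-yield cow of pair 3 had the highest level of the 8 cows, and its low-yield partner had the lowest. The groups were joined by their pair 3 ratio, from which levels are rebuilt, so this ranking is a description too.

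Both strands of these stretches gave alike ratios. Within each group, probes were split by whether they hold the shared sequence on 1 strand or on the other. Pair 3 medians were 3.91 (21 probes) and 4.22 (14) in 1 group, 4.47 (12) and 4.76 (9) in another, 4.66 (9) and 5.06 (4) in another and 4.82 (7) and 5.01 (7) in another, while the group of the lowest median had 2.53 (8) and a single probe at 2.83 on the other strand. The 5 groups of other shared sequence, olfactory receptors and zinc finger genes among them, had pair 3 medians of -0.39 to 0.64. They were set apart by that same median, so the contrast follows from the choice. What the pattern of these probes comes from was not tested.

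Several immune genes were represented by probes that share sequence with probes of other genes, though not all by probes of these groups. LYZ, the antibacterial enzyme lysozyme, stood at 3.94 in pair 3 and -0.37 in pair 4 through a probe of these groups, whereas its other probe stood at -0.11 and 0.73. TLR2, a receptor of bacterial lipoproteins, stood at 3.64 and -0.30 through a probe linked to other genes, and its 3 other probes at -0.69 to -0.52 and -0.29 to -0.07. IL1B, the cytokine interleukin 1 beta, stood at 3.14 and 0.08 through a linked probe, and at 0.06 to 0.63 in pair 3 through its 3 others. CD3D, a chain of the T cell receptor complex, has a linked probe alone and stood at 2.25 and 0.04. Without linked probes, 12229 genes remained, 107 higher and 171 lower genes were shared at 1 or more in size, and r of the pairs was 0.381.

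Genes on which the pairs were opposite numbered 789 with pair 3 above and pair 4 below 0 on both arrays each (6.33%) and 751 with the reverse (6.03%). Both pair means reached 1 in size for 19 of them (0.153%), and with array 1 of pair 3 left out for 31. These counts are descriptions, since 1 pair has no replicate. HSPA1A, the heat-inducible chaperone HSP70, stood at -1.94 and -2.45 in pair 3 and at 2.40 and 2.66 in pair 4. Levels of HSPA1A were 11.59 against 13.78 (log2 intensity) in pair 3 and 14.82 against 12.29 in pair 4, the high-yield cow first, and its 4 other probes had the same signs.

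**Figure D3:**
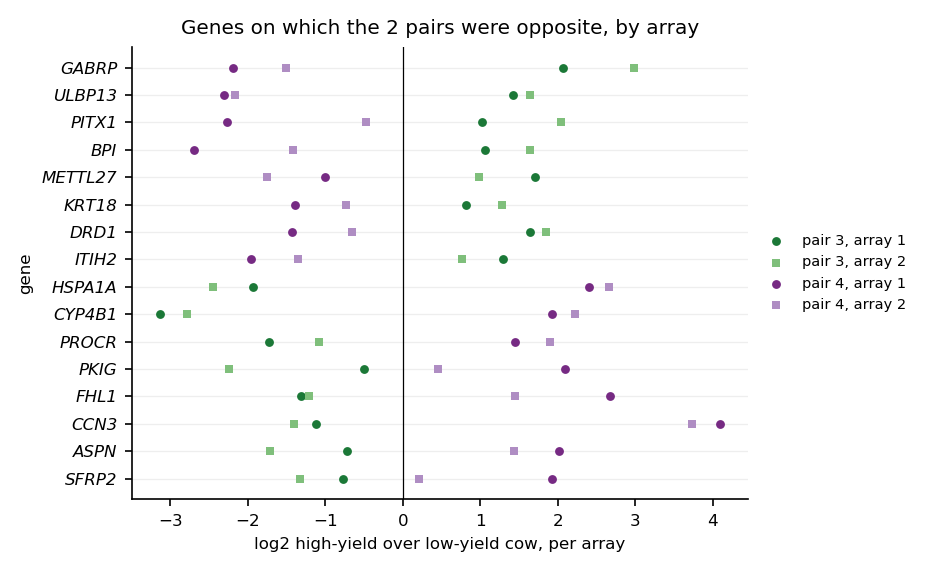
Log2 ratio of the high-yield over the low-yield cow on each of the 4 arrays (points, x axis) for the 16 genes with the largest opposite pair means (y axis). Points of pair 3 (green) and pair 4 (purple) lie on different sides of 0 for each gene, and those of CCN3 reach 4.10 in pair 4.

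CCN3, a matricellular protein, stood at -1.12 and -1.40 in pair 3 and at 4.10 and 3.73 in pair 4, measured on chromosome 14 at 42130994 to 42131053. ASPN, a small proteoglycan of the matrix (-1.22 and 1.73 in the pairs), SFRP2, a secreted modulator of Wnt signals (-1.05 and 1.07), and FHL1, a LIM protein of muscle (-1.26 and 2.06), had the same signs. The probe of FHL1 shares sequence with another gene, and its 5 other probes, which do not, had the same signs. PROCR, the endothelial receptor of protein C, was at -1.41 and 1.68, and PKIG, an inhibitor of protein kinase A, at -1.37 and 1.27. CYP4B1, a cytochrome P450, was at -2.96 and 2.07 but well above background in 2 of the 4 channels of the high-yield cows. In the reverse direction, KRT18, a luminal keratin, was at 1.05 and -1.06, PITX1, a homeobox factor, at 1.53 and -1.37, BPI, a bactericidal protein, at 1.35 and -2.06 and METTL27 at 1.35 and -1.38. GABRP, a subunit of the GABA receptor (2.53 and -1.85), ULBP13, a ligand of the NKG2D receptor (1.53 and -2.24), and DRD1, a dopamine receptor (1.74 and -1.04), were well above background in 2 of 4 channels of the low-yield cows, and the one probe of DRD1 shares sequence with another gene. ITIH2, a hyaluronan-binding serum protein, stood at 1.03 and -1.66, and 1 of its 2 other probes had the same signs.

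Gene lists were described next by the number of members shared in each direction and by their medians in pairs 3 and 4, beside medians of 0.02 and 0.01 over all genes. No member of any list passed limma over all genes. A member is given through its brightest probe, and other probes of it can differ in size. In this tissue sample, fewer cells of a type and less RNA per cell cannot be told apart, which bears on each list. Lists of milk fat, sterols, protein folding and secretion had medians below 0 in both pairs, and those of the acute phase and macrophages had medians above 0 in both.

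**Figure D4:**
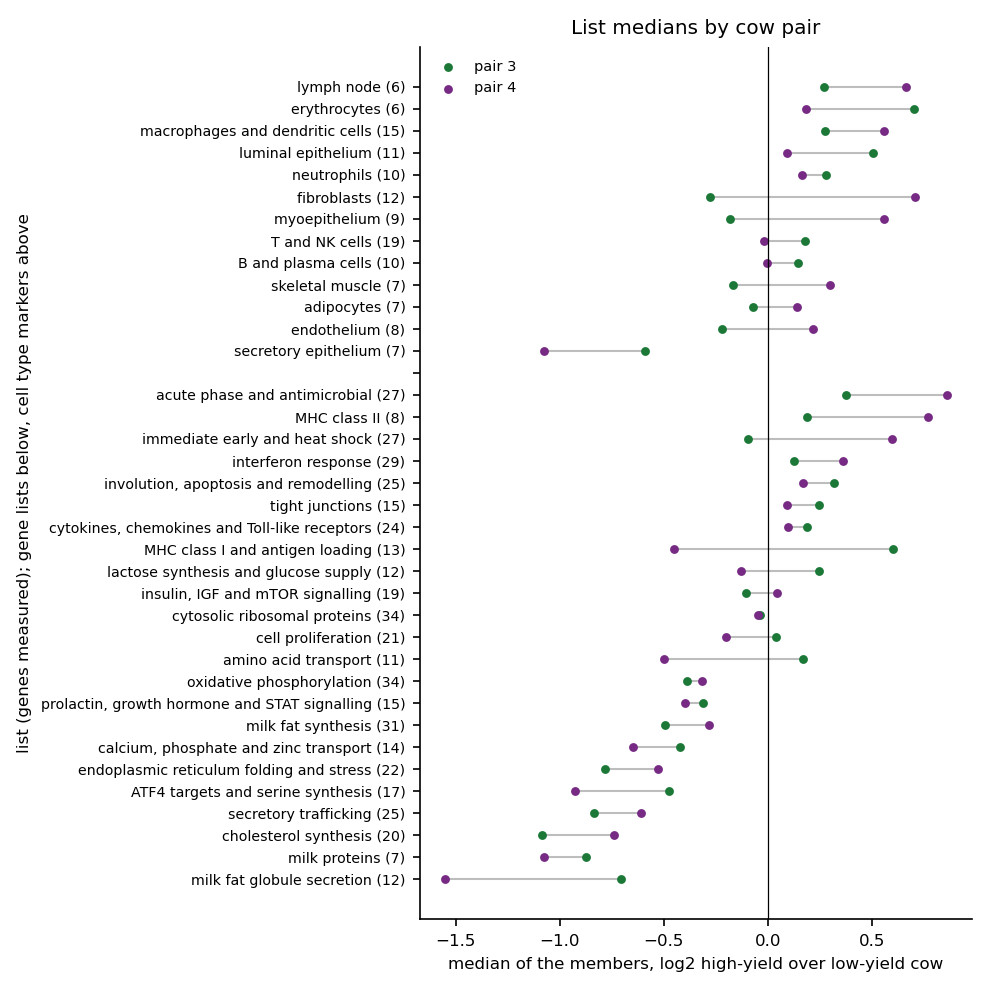
Median log2 ratio of the high-yield over the low-yield cow over the measured members of each list (x axis) in pair 3 (green) and pair 4 (purple), joined by a line; the number of members is given in brackets after each list (y axis). Milk fat globule secretion reaches the lowest median of pair 4, -1.55, and acute phase and antimicrobial genes lie highest in pair 4 at 0.86.

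Milk fat synthesis had medians of -0.50 in pair 3 and -0.28 in pair 4, with 12 of 31 members lower and 2 higher in all 4 arrays, against 14.0% and 16.2% of all genes. Beside GPAM and LPL, the fatty acid carrier FABP3 stood at -1.32, -3.85, -1.68 and -2.31 on the arrays. SCD, the desaturase that makes oleic acid, stood at -2.17, -2.54, -1.89 and -1.88, and all 5 of its other probes had the same signs. FASN, the fatty acid synthase, was at -2.12 in pair 3 and -1.09 in pair 4, and CD36, a fatty acid receptor, at -1.80 and -1.77. ACACA, the carboxylase that commits acetyl units to fatty acids, was at -1.16 and -0.94, although 1 of its 2 other probes had another sign. The 2 higher members were SLC27A1, a fatty acid transport protein (1.52 and 0.50), and the sterol regulator SREBF2 (1.49 and 0.14), and none of the 3 other probes of SREBF2 had these signs.

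Milk fat globule secretion had medians of -0.71 and -1.55, with 9 of 12 members lower and 0 higher in all 4 arrays. MUC15, a mucin of the globule membrane, stood at -1.67, -2.53, -2.18 and -1.79. MFGE8, the lactadherin of the globule surface, was at -1.16 in pair 3 and -2.29 in pair 4. BTN1A1, butyrophilin, was at -0.59 and -1.35, and XDH, the oxidoreductase that binds it at the budding droplet, at -0.47 and -0.94. CIDEA, which joins lipid droplets, was at -0.29 in pair 3, with its arrays of different sign, and at -2.63 in pair 4, but 2 of its 3 other probes had the reverse balance, at -2.47 and -2.61 in pair 3 and near -0.48 in pair 4.

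Cholesterol synthesis had medians of -1.09 and -0.74, with 12 of 20 members lower and 3 higher in all 4 arrays. SQLE, the squalene epoxidase, stood at -3.45, -2.55, -2.37 and -1.55 on the arrays. CYP51A1, the lanosterol demethylase, was at -2.28 and -1.38 in the pairs.

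The 7 milk protein genes had medians of -0.87 and -1.07, but only LALBA and CSN3 had 1 sign in all 4 arrays, and the median of the gene means, -1.01, was 0.26 on array 1 of each pair alone. LALBA, the alpha-lactalbumin that turns galactosyltransferase into lactose synthase, stood at -0.94 and -1.07 in pair 3 and at -1.87 and -1.86 in pair 4. CSN3, kappa-casein, was at -1.33 and -1.40 in the pairs, while its other probe was at 0.47 in pair 3 and -0.93 in pair 4. CSN1S1, an alpha casein, stood at 0.76 and -2.64 on the arrays of pair 3 and at 0.84 and -2.99 on those of pair 4, thus above 0 with the high-yield cow in Cy5 and below 0 with it in Cy3. CSN1S2 showed the same split (0.53, -2.28, 0.00 and -2.49), and CSN2, PAEP and GLYCAM1 also had arrays of both signs. Of these 5 genes, GLYCAM1 had pair means above 0, at 0.63 and 0.25.

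Lactose synthesis and glucose supply had medians of 0.25 and -0.13, with 3 of 12 members higher and 3 lower in all 4 arrays. UGP2, which makes the UDP-glucose of this pathway, was at -2.02 and -1.42, and SLC2A1, the glucose transporter GLUT1, at -0.98 and -0.81.

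Folding and stress genes of the endoplasmic reticulum had medians of -0.78 and -0.53, with 16 of 22 members lower and 0 higher in all 4 arrays. SDF2L1, a luminal chaperone component, stood at -1.88, -1.35, -1.91 and -0.73. The co-chaperone DNAJB11 was at -1.36 and -1.42, and HSPA5, the chaperone BiP, at -1.19 and -0.69. XBP1 and ATF4, transcription factors of the stress response, were at -1.55 and -0.83 and at -1.49 and -0.77. The brightest probes of DNAJB11 and XBP1 share sequence with probes of other genes, and a probe of XBP1 that does not was at -1.37 and -1.01.

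Secretory trafficking had medians of -0.84 and -0.61, with 21 of 25 members lower and 1 higher in all 4 arrays. LMAN1, a cargo receptor between endoplasmic reticulum and Golgi, stood at -1.27, -2.28, -0.95 and -1.78. SEC24D, of the COPII coat, was at -1.55 and -1.26, TRAM1, of the translocation channel, at -1.52 and -1.23, and KDELR2, a retrieval receptor, at -1.83 and -0.97. Its relative KDELR1 was the 1 higher member, at 0.91 and 0.67, and 1 of the 2 other probes of KDELR1 had the same signs.

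ATF4 targets and serine synthesis genes had medians of -0.48 and -0.93, with 11 of 17 members lower and 1 higher in all 4 arrays. Beside PSPH, TRIB3, a pseudokinase induced by ATF4, stood at -2.43, -1.93, -3.18 and -2.44. PSAT1, the aminotransferase of serine synthesis, was at -1.96 and -2.74, SLC7A5, the transporter of large neutral amino acids, at -2.21 and -2.72, and ASNS, asparagine synthetase, at -1.32 and -1.77. NUPR1, a stress-induced nuclear protein, was the higher member, at 2.14, 0.87, 2.32 and 1.38 on the arrays. Amino acid transport had medians of 0.17 and -0.50 with 4 of 11 members lower and 2 higher. The glutamine transporter SLC1A5 (-1.42 and -2.95) and the transporters SLC1A4 (-2.28 and -1.63) and SLC38A2 (-1.61 and -1.28) were lower. The glutamate transporter SLC1A1 was higher (2.15 and 0.93), and its other probe was at 0.19 and 0.35.

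Calcium, phosphate and zinc transport had medians of -0.42 and -0.65, with 7 of 14 members lower and 0 higher in all 4 arrays. SLC30A4, which loads zinc into milk, was at -1.59 and -1.77, and ATP2A2, a calcium pump of the endoplasmic reticulum, at -1.92 and -0.72. SLC39A8, a zinc importer, was at -2.40 and -0.58, and SLC34A2, a phosphate transporter, at -1.54 and -1.45, though well above background in 1 of 4 channels of the high-yield cows. Oxidative phosphorylation had medians of -0.39 and -0.32 with 13 of 34 members lower and 1 higher, among the lower COX5A (-0.91 and -1.01), whose probe shares sequence with another gene. Cytosolic ribosomal proteins lay near all genes, at -0.04 and -0.05 with 2 of 34 higher and 2 lower.

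Prolactin, growth hormone and STAT signalling had medians of -0.31 and -0.40, with 8 of 15 members lower and 1 higher in all 4 arrays. The STAT5-induced inhibitors CISH and SOCS1 were among the lower members. CISH stood at -2.30, -2.51, -2.36 and -1.88 on the arrays, and SOCS1 at -2.54, -1.50, -2.47 and -1.55. Another probe of SOCS1 was at -0.01 and -0.45 in the pairs, and a further one at -1.90 and -1.94. PRLR, the prolactin receptor, was at -0.31 and -1.88, and STAT5B at -1.20 and -0.71. STAT5A was at 1.54 and 0.03, and neither of its other probes had these signs. ELF5, a factor of the secretory lineage, was at -0.59 and -0.56. Insulin, IGF and mTOR signalling had medians of -0.11 and 0.04, with 3 of 19 members higher and 3 lower.

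Acute phase and antimicrobial genes had medians of 0.37 and 0.86, with 13 of 27 members higher and 3 lower in all 4 arrays. Without linked probes, which represent LYZ, SAA3 and M-SAA3.2 among others, the median of the gene means was 0.75 against 1.35. Beside CHI3L1, the serum amyloids and CFB, the lipopolysaccharide-binding protein LBP was at 2.08 and 1.26 and the complement component C3 at 1.18 and 1.89, with all 9 other probes of C3 of the same signs. LCN2, a siderophore-binding lipocalin, was at 2.14 and 0.99, and its other probe at 0.01 and -0.66. The pairs differed on HP, haptoglobin, which stood at 0.11 and 0.64 in pair 3 and at 4.73 and 5.12 in pair 4. LAP, the lingual antimicrobial peptide, stood at -1.22 and -0.54 in pair 3 and at 4.99 and 5.29 in pair 4. S100A9, a calprotectin subunit of neutrophils, was at 0.10 and 2.60. SERPINA3, a protease inhibitor, was at 3.50 in pair 3 and -0.03 in pair 4. These values come from its only kept probe. That probe lies in the band described above but was not linked to a probe of another gene. CATHL5, a cathelicidin, was lower in both, at -2.70 and -2.17.

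Cytokines, chemokines and Toll-like receptors had medians of 0.19 and 0.10, with 6 of 24 members higher and 0 lower in all 4 arrays. CCL2, the monocyte chemokine, stood at 2.20, 2.01, 2.61 and 2.68, and its other probe was at 0.35 and 0.98 in the pairs. IL1RN, the antagonist of the interleukin 1 receptor, stood at 1.93, 1.55, 2.19 and 1.43. Interferon response genes had medians of 0.12 and 0.36 with 7 of 29 higher and 1 lower. The RNA sensor IFIH1 was at 0.26 and 2.05, and its other probe at 0.09 and 0.08. MHC class II genes had 0.19 and 0.77 with 5 of 8 higher and 0 lower, BOLA-DQA2 at 0.78 and 1.43. MHC class I and antigen loading genes divided the pairs, at 0.60 and -0.45, with 5 of 13 members above 0 in pair 3 and below 0 in pair 4 on both arrays each. JSP.1, a class I heavy chain, was at 2.04 and 4.97, with 3 of its 4 other probes of the same signs, and B2M, the light chain, at -0.87 and -1.22. Class I heavy chain genes are alike in sequence and vary between animals, so copies and alleles cannot be told apart here.

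Immediate early and heat shock genes had medians of -0.10 and 0.59, with 9 of 27 members higher and 2 lower in all 4 arrays. Of the 27, 5 were below 0 in pair 3 and above 0 in pair 4 on both arrays each. Among the 9 were the early transcription factors JUNB at 2.00, 2.33, 2.62 and 2.20, EGR1 at 2.01, 1.80, 1.53 and 1.54 and FOS at 0.49, 1.12, 2.52 and 3.14. Another probe of EGR1 was at 0.14 and 0.18 in the pairs, and a further one at 1.82 and 0.85. Involution, apoptosis and remodelling genes had 0.32 and 0.17 with 7 of 25 higher and 1 lower. The death receptor FAS was at 1.71 and 1.85, the secreted chaperone CLU at 1.64 and 1.40, and CTSL, a lysosomal protease, was the lower member at -1.89 and -1.36. Cell proliferation genes had medians of 0.04 and -0.20 with 2 of 21 higher and 2 lower, and tight junction genes 0.24 and 0.09 with 1 of 15 higher and 1 lower.

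Among cell type markers, those of secretory epithelium were at -0.59 and -1.07 with 4 of 7 lower and 0 higher in all 4 arrays. All 7 are also members of the milk protein or milk fat globule lists, so they repeat those values. Markers of luminal epithelium were at 0.51 and 0.09 with 4 of 11 higher and 3 lower. ELF3, an epithelial transcription factor, stood at 2.20, 1.95, 1.80 and 1.49, and KRT19 at 2.34, 2.13, 1.30 and 0.90. KRT8 was at 1.33 and 0.74, another of its probes at 0.48 and -0.85 and the rest above 0 in both pairs. GATA3, a luminal transcription factor, was at -0.64 and -1.05, with its other probe at 0.72 in pair 3. The mean level of the secretory list was 16.87 and 17.50 (log2 intensity) in pair 3 and 16.36 and 17.52 in pair 4, the high-yield cow first. That of the luminal list was 12.03 and 11.25 in pair 3 and 11.99 and 11.93 in pair 4. The secretory list is made of members of the milk lists and cannot show cell content apart from them. What the luminal ratios mean for those lists was not tested.

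Stromal and contractile markers separated the pairs. Fibroblast markers had medians of -0.28 in pair 3 and 0.70 in pair 4, and 7 of 12 were below 0 on both arrays of pair 3 and above 0 on both of pair 4. FN1, fibronectin, stood at -0.37 and -0.70 in pair 3 and at 4.23 and 4.16 in pair 4, with the same signs in 7 of its 8 other probes. COL1A2, a chain of type I collagen, stood at -1.63, -0.42, 2.06 and 1.57. COL1A1 (0.61 and -0.49) and COL3A1 (0.06 and -0.73) went the other way through their brightest probes, but 0 of their 4 and 9 other probes had these signs. The 9 other probes of COL3A1 stood at -1.39 to -0.73 in pair 3 and at 1.09 to 2.66 in pair 4, as FN1 did in sign. Mean levels of the fibroblast list were 11.10 and 11.40 (log2 intensity) in pair 3 and 12.32 and 11.29 in pair 4, the high-yield cow first.

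Myoepithelial markers had medians of -0.18 and 0.56, with 4 of 9 below 0 in pair 3 and above 0 in pair 4 on both arrays each, 2 the reverse and 3 neither. Among the 4 were the contractile genes CNN1, calponin (-0.43 and 1.76), and ACTA2, smooth muscle actin (-0.21, -0.30, 1.30 and 0.89 on the arrays). The 2 were the keratins KRT5 (0.70 and -0.23) and KRT17 (0.75 and -0.40), and the probe of KRT17 shares sequence with another gene. DES, desmin of muscle cells, stood at -0.57 and -0.51 in pair 3 and at 3.60 and 3.70 in pair 4, in a skeletal muscle list of -0.17 and 0.30 with 1 of 7 members higher. Contractile markers are also made by vessel walls, and which cells carried them was not tested.

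Macrophage and dendritic cell markers had medians of 0.27 and 0.56 with 5 of 15 higher and 1 lower, C1QA, of complement C1q, at 0.73 and 0.92 and the receptor CSF1R at 0.23 and 0.79. Neutrophil markers had 0.28 and 0.16 with 4 of 10 higher and 0 lower. Erythrocyte markers had 0.70 and 0.18 with 4 of 6 higher and 0 lower, but the globins HBM (1.68 and 1.56) and HBB (0.19 and 2.56) were well above background in 1 of 4 channels of the low-yield cows. In all, 4 of the 6 were dim on some channel, so members may have passed the filter through the high-yield cows, and the median of the means was 0.75, against 0.12 with no filter. Lymph node markers had 0.27 and 0.66 with 2 of 6 higher and 1 lower, and 3 of 6 were above 0 in pair 4. The chemokine CCL19 was at 0.49 and 3.22, with its other probe at 0.24 and 0.21, and CXCL13 was at 0.33 and 1.98, above background in 1 of 4 channels of the low-yield cows. With probes above background in all 8 channels, the median of the means was 0.15 against 0.43. T and NK cell markers had 0.18 and -0.02 with 2 of 19 higher and 1 lower, B and plasma cell markers 0.14 and -0.01 with 1 of 10 higher and 1 lower, adipocyte markers -0.07 and 0.14 with 1 of 7 higher and 0 lower, and endothelial markers -0.22 and 0.22 with 0 of 8 higher and 0 lower. Among the T and NK cell markers, CD3D, GZMA, GZMB and LCK were represented by linked probes. GZMA was at 1.64 and -0.02, GZMB at 1.08 and -0.28 and LCK at 0.65 and 0.10. ADIPOQ of adipocytes, TP63 of myoepithelium and VWF of endothelium did not pass the filter on dim probes.

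The last comparison asked whether the yield ratio of lactation IV differed from that of lactation II, measured in pairs 1 and 2. Limma called 0 genes for the difference (0%), with 985 genes (7.91%) at an unadjusted p under 0.05 and a smallest adjusted p of 0.142. The count changed with pair 2 left out, which leaves pair 1 alone for lactation II, so the change cannot be laid to either pair. With median centring 7 genes passed, among them SAA3, PSPH, PTX3 and TRIB3. SAA3 was at -3.49 and -3.33 in pairs 1 and 2, against 2.59 and 3.14 in pairs 3 and 4. PSPH was at 2.09 and 1.61 in pairs 1 and 2, against -3.49 and -3.85. Both genes were at the smallest adjusted p of this difference, 0.142 in limma. That their pairs of the 2 lactations did not overlap therefore says little. How many of all genes separated in this way was not counted. SAA3 was given here through a probe that shares sequence with probes of other genes.

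**Figure D5:**
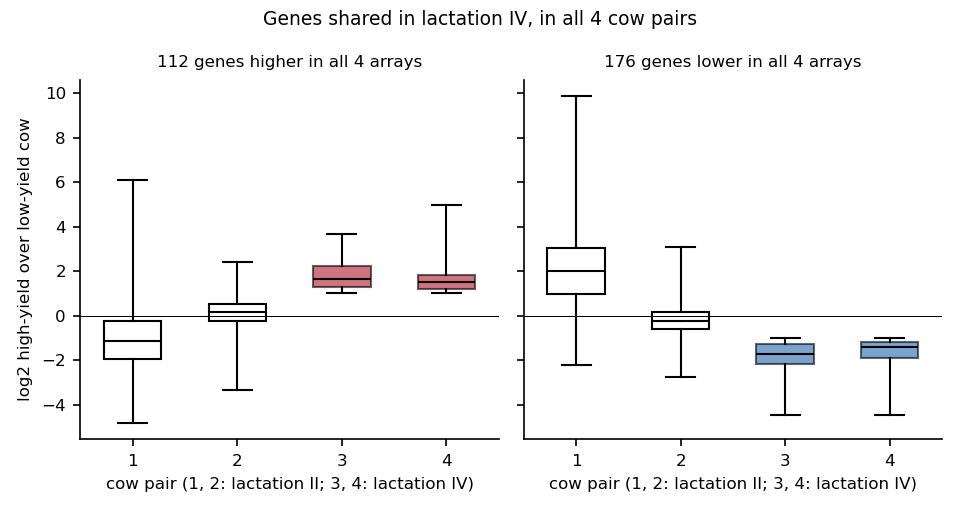
Log2 ratio of the high-yield over the low-yield cow (y axis) in each of the 4 cow pairs (x axis) for the 112 higher (left) and 176 lower (right) genes shared in lactation IV; boxes show quartiles and median, whiskers the lowest and highest gene. Genes were chosen by pairs 3 and 4, and the medians are -1.14 and 1.99 in pair 1 and 0.19 and -0.24 in pair 2.

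Most of the shared genes of lactation IV had the opposite sign in pair 1. Of the 112 genes higher in lactation IV, 25 (22.3%) were above 0 in pair 1 and 70 (62.5%) in pair 2, where 49.4% and 57.3% of all genes were. Of the 176 lower genes, 166 (94.3%) were above 0 in pair 1 and 63 (35.8%) in pair 2. Their medians were -1.14 and 0.19 in pairs 1 and 2 for the higher genes, and 1.99 and -0.24 for the lower genes. The medians of pair 2 thus had the signs of lactation IV, and the contrast of medians lay in pair 1 alone. The 2 pairs of lactation II also differed on milk protein genes, with medians of 8.58 in pair 1 and -1.16 in pair 2. LPL was at 5.49 in pair 1 and -2.77 in pair 2, and GPAM at 3.13 and -1.81. CFB was below 0 in both pairs of lactation II, at -2.36 and -1.49, while FBP2 was above 0 in all 4 pairs, at 3.54 and 1.87 in pairs 1 and 2.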

How the data were processed

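The authors deposited 2-colour scanner files with spot and background intensity values and a log10 ratio of Cy5 over Cy3, per the file headers (Agilent design 023647, Feature Extraction 10.10.1.1, build HGSC Btau_3.1). Other columns hold flags and positions, per the file headers. A further deposited table holds log2 with scale and centring not stated; set against the scanner ratios, it is high over low, with column medians of -0.0352 to 0.0195 in lactation IV, and array 1 of pair 3 is shrunken there (slope 0.0879). RNA input was 1000 ng, per the labels.

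From the intensities, limma 3.58.1 in R 4.3.3 corrected background (normexp, noise from 153 negative control spots, offset 50) and applied within-array loess, with controls at weight 0; flagged spots, 8 to 139 per array, were left out and 0 were saturated. Cow levels were rebuilt from each array's mean intensity and ratio. For this, mean intensities of all arrays of the series were brought to the same distribution (quantile normalisation), so levels are not direct intensities. A probe was kept when well above background in at least 3 of 4 channels of either yield (29901 probes); the brightest stood for a gene, and 3443 of 6720 genes with several kept probes had one of another sign. Names came from RefSeq ARS-UCD2.0. Pair means were tested two-sided by lmFit and eBayes at an adjusted p of 0.05 (Benjamini-Hochberg), in lactation IV and for its difference from lactation II. The number of arrays limits the precision. Members, lists and the named-gene rule (12 shared and 8 opposite genes per direction by the smaller pair mean, and list members) were chosen with earlier results of these data known. The fit was tested on simulated data. Some genes of these lists are not reported here.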

Additional observations from a re-analysis of the deposited data

Results flagged for a closer look

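For 9 lists, the medians of both pairs of lactation IV lay on one side of 0 and those of both pairs of lactation II on the other. Some medians of pair 2 were close to 0, where all genes had 0.05. In pairs 1 and 2, interferon response was at -0.78 and -0.02 and macrophages and dendritic cells at -0.73 and -0.06. Acute phase and antimicrobial genes were at -0.15 and -0.05, and oxidative phosphorylation at 0.81 and 0.08. The other lists lay further from 0 in pair 2. The difference was not tested for any of them, and lactation cannot be told apart from slide. A difference was taken between the means of the pair medians, lactation IV minus lactation II. For ATF4 targets and serine synthesis it was -1.87, and for oxidative phosphorylation -0.80. It was 0.71 for acute phase and antimicrobial genes, 0.64 for interferon response, 0.86 for MHC class II and 0.39 for tight junctions. Among cell type markers it was 0.95 for luminal epithelium, 0.81 for macrophages and dendritic cells and 0.86 for lymph node. Of 44 gene and array measures checked for an array far from the others, 0 stood apart. Most of the 44 were the named genes, chosen for signs alike within each pair, so this count says little about the arrays.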

How the results depend on the processing

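With 2 pairs, precision is low, and dim probes limit many ratios. With 1 orientation alone, genes higher in all arrays numbered 4372 (high-yield cow in Cy3) and 4215 (in Cy5), lower genes 3497 and 4113, and opposite genes 4587 and 4128, since 1 array per pair is left; shared higher genes of 1 or more were 270 and 207, and in Cy5 lower ones were 409 and opposite ones 35. Median centring gave 952 higher and 786 opposite genes, 99 called genes, 7 called differences and 631 at an unadjusted p under 0.05. The scanner log ratio gave 281 higher, 290 lower and 92 opposite genes of 1 or more, the saddle-point fit 60, 102 and 6, and the mean of a gene's probes 73 higher ones. Without array 1 of pair 3, opposite genes were 2429, and 31 at 1 or more. Genes at an unadjusted p under 0.05 made up 8.11% with all 4 pairs and a lactation term, 6.85% with unpaired cows, and 2.14% to 6.92% with pair 3 or pair 4 left out. With each pair left out, called differences ran from 0 to 298 and those at an unadjusted p under 0.05 from 328 to 2655; a lone pair is then assumed to vary like the others. The cause of these shifts was not tested. Single genes turned sign: in Cy5 alone CSN1S1 (0.80), CSN1S2 (0.26) and CSN2 (0.41); GLYCAM1 in Cy3 alone (-0.99), with the saddle-point fit (-0.037) and without array 1 of pair 3 (-0.013); COL1A1 in the deposited table (-0.013), in Cy3 alone (-0.21) and with median centring (-0.12); COL3A1 in Cy5 alone (0.020) and as the mean of its probes (0.43); KRT17 in Cy5 alone (-0.066); and TLR2 without linked probes (-0.38), an alternative chosen after the data were seen, as was keeping spots of outlying local background. The 24 shared named genes kept their sign in every setting, with adjusted p under 0.05 only under median centring, but without linked probes SAA2 went from 2.66 to 0.29, NCF4 from 2.83 to 0.83 and SAA3 from 2.87 to 1.55.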
